A study of Mus musculus with 8 samples.

Results

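The genes described here encode subunits of the proteasome, the protease complex that degrades ubiquitin-tagged proteins. They were taken as every gene whose symbol starts with Psma, Psmb, Psmc, Psmd or Psme and a digit, without Psmb8 and Psmb9, and with a probe set that carries 1 gene symbol. That gave 42 of the 18820 genes with such a probe set: 7 core alpha (Psma), 9 core beta (Psmb), 7 base (Psmc), 14 lid (Psmd) and 5 activator (Psme) genes. Each gene was represented by its probe set with the highest mean. They were measured on 8 whole-transcript arrays of CD3-positive T cells recovered from grafts of human embryonic stem cell-derived tissue at day 30. In the 4 tolerant samples the wild-type CD1 hosts had received injections listed as anti-CD4, anti-CD8 and CD40L. In the 4 rejecting samples the wild-type CD1 hosts were untreated. CD1 is an outbred strain. Samples carry the numbers 1 to 4 in each group, and no label says that each came from its own mouse, so the p-values reflect sample-to-sample spread that may be technical only.

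The core particle of the proteasome is a barrel of alpha rings around beta rings, and only the beta subunits Psmb5, Psmb6 and Psmb7 carry a proteolytic site. The regulatory particle, whose base is a ring of ATPases (Psmc) and whose lid holds the deubiquitinase Psmd14, binds tagged proteins, unfolds them and feeds them into the core. Interferon can exchange the catalytic subunits for Psmb8, Psmb9 and Psmb10, which alters the peptides offered on MHC class I. The activators Psme1 and Psme2 cap the core in the same response. When proteasome activity is short, the transcription factor Nfe2l1 raises subunit genes through antioxidant response elements in their promoters.

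The rule went beyond the constitutive subunits in a few places. Psmb10 is the interferon-induced counterpart of Psmb7, Psmb11 is the thymus-specific beta subunit and Psma8 is a testis alpha subunit. Psmc3ip and Psme3ip1 match by symbol only and encode interacting proteins, with Psmc3ip a factor of meiotic recombination. Psmd1, Psmd2 and Psmd4 sit in or beside the base by structure, and Psmd5, Psmd9 and Psmd10 are assembly chaperones. Psma4 is absent from the 42 because its probe set names a second gene. Sem1 and Adrm1 are subunits whose symbols the rule does not match, and they were listed with the assembly genes below.

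Promoters were matched by symbol for 35 of the 42 genes in RefSeq sequences of the GRCm38.p6 build, each running from 250 bases before to 50 after the annotated start. The others were Psma8, Psmb1, Psmb2, Psmb7, Psmc3, Psmd3 and Psmd7. The sequences of Psmb3, Psmb6, Psmd8 and Psme1 are shown because these were the members above the background line on every array numbered 3 or 4, and that of Psmb5 because it had the lowest unadjusted p between the groups there. Capitals mark the antioxidant response element core TGACNNNGC or the core of the interferon-stimulated response element, each searched on both strands.
Psmb5, chr14:54617946-54618245, minus strand: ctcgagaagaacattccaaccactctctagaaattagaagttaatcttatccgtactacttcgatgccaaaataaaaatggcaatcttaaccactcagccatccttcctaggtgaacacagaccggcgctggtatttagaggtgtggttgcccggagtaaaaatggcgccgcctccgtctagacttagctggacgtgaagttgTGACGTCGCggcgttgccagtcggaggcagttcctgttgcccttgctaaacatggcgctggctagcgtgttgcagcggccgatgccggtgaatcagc
Psmb6, chr11:70525107-70525406, plus strand: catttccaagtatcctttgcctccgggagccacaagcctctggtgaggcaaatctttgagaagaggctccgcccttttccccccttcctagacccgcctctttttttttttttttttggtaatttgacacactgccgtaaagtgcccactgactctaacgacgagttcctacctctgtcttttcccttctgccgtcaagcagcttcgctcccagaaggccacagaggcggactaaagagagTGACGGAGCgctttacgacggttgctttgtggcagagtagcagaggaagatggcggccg
Psmb3, chr11:97703184-97703483, plus strand: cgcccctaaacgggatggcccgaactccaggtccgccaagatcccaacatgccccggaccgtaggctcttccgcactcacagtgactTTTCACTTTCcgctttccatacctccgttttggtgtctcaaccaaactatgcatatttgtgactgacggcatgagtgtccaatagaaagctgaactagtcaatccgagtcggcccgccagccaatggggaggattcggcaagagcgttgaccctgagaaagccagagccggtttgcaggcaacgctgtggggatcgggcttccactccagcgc
Psmd8, chr7:29180624-29180923, minus strand: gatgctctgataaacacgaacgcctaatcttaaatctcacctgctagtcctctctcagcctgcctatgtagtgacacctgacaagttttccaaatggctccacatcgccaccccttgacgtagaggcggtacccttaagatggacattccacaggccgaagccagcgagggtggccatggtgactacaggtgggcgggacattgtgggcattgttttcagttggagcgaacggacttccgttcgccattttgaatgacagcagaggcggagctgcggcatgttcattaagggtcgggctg
Psme1, chr14:55578244-55578543, plus strand: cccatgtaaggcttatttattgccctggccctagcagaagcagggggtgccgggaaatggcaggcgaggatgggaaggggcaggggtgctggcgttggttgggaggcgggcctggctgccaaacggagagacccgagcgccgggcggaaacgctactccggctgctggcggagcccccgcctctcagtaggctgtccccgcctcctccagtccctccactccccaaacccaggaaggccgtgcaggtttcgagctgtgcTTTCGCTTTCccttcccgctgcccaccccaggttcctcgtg

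The antioxidant response element core lay in 6 of the 35 member promoters (17.1%), against 12.5% of 27025 promoters of all genes. In Psmb5 it ran from base 47 to base 39 before the annotated start, and in Psmb6 from base 9 to base 1. The other holders were Psmc6, Psmd9, Psmd12 and Psme4. The interferon-stimulated core lay in 4 of 35 (11.4%, against 3.49% of all), those of Psmb3, Psmd4, Psmd9 and Psme1, in Psme1 after the start. GC boxes (GGGCGG) lay in 57.1% of the member promoters and 35.9% of all, and CCAAT boxes (CCAAT) in 40% and 37.9%. The interferon-gamma activated site (TTCNNNGAA) lay in 1 of 35 (2.86%, against 8.47% of all). Different motifs overlapped in Psmd9 alone, where the antioxidant core shared bases with a GC box. A match in these letters is a description of the sequence and does not show that a factor binds there.

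Signal differed between 2 sets of arrays that did not follow the groups, those numbered 3 and 4 and those numbered 1 and 2, so each result is given within each set too. The background line of an array was the 99th percentile of its 1182 olfactory and vomeronasal receptor probe sets, genes not known from T cells. It lay between 0.99 and 1.35 in log2 units. Of all genes, 9.12% to 16.3% lay above it on arrays 3 and 4 and 2.52% to 5.57% on arrays 1 and 2. The T cell label rested on few detected markers: of 9 measured genes, Cd3d, Cd247 and Cd28 lay under the line on all 8 arrays. Cd3e read 1.05, 0.57, 2.75 and 3.82 on tolerant arrays 1 to 4 and 0.88, 1.20, 1.51 and 2.36 on rejecting arrays 1 to 4. In bulk RNA, fewer cells of a type and less RNA per cell cannot be told apart.

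How many proteasome genes lay above background depended on where the line was set. Of the 42, 23 (54.8%) lay under the line on all 8 arrays, against 74.4% of all genes, and 0 lay above it on all 8. With the 95th percentile as the line, 10 lay under it on all 8 arrays and 15 lay above it on every array numbered 3 or 4. Above the 99th percentile line, used from here on, were 4 genes on every array numbered 3 or 4 (9.52%, against 6.52% of all genes), namely the core subunits Psmb3 and Psmb6, the lid subunit Psmd8 and the activator Psme1. The number of members above the line was 0, 1, 12 and 12 on tolerant arrays 1 to 4, and 7, 3, 11 and 6 on rejecting arrays 1 to 4. In tolerant samples these were 0%, 2.38%, 28.6% and 28.6%, against 2.77%, 2.52%, 16.3% and 15.9% of all genes. In rejecting samples they were 16.7%, 7.14%, 26.2% and 14.3%, against 4.81%, 5.57%, 14.3% and 9.12%. The line itself was 1.33, 1.35, 1.05 and 0.99 on tolerant arrays 1 to 4 and 1.18, 1.15, 1.01 and 1.14 on rejecting arrays 1 to 4. On arrays 3 and 4 the cytosolic ribosomal protein genes were above it in 77% and 86.5% of 74 genes in tolerant samples and 82.4% and 81.1% in rejecting samples. Oxidative phosphorylation subunits were above it in 55% and 51.2% of 80 genes in tolerant samples and 37.5% in both rejecting samples. The proteasome genes reached 28.6% in both tolerant samples and 26.2% and 14.3% in rejecting samples. The share of all genes was likewise larger on both tolerant than on both rejecting arrays numbered 3 and 4. These shares are descriptions and were not tested against each other.

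**Figure D1:**
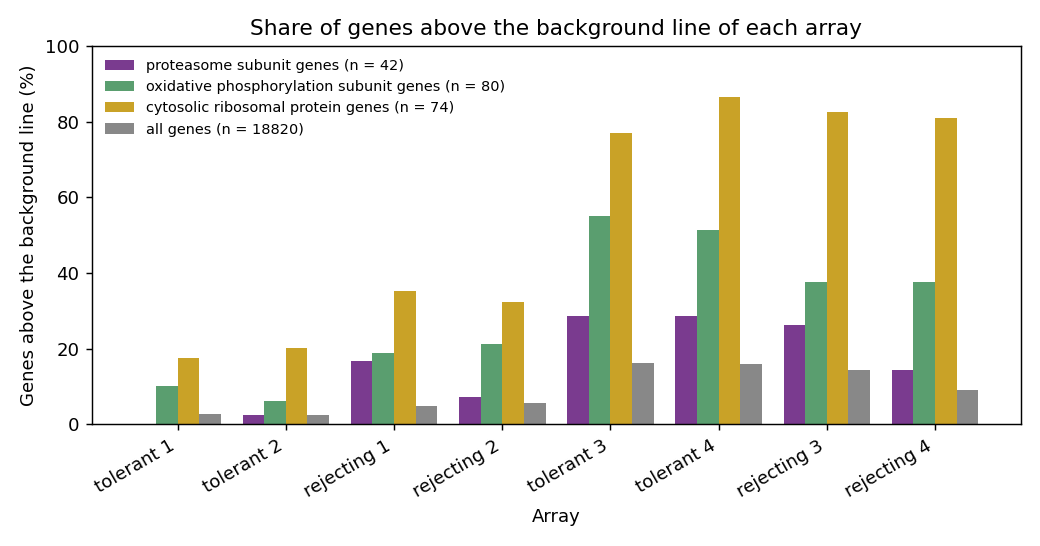
Share of genes (%) above the background line on each of the 8 arrays, for the 42 proteasome genes, the 80 oxidative phosphorylation subunit genes, the 74 cytosolic ribosomal protein genes and all 18820 genes. Proteasome bars stay at or under 28.6% on every array, and on arrays 3 and 4 they stand between those of all genes and those of the other gene families.

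On each array numbered 3 or 4, the largest share of genes above the line was in the beta or the activator group. By count, the lid group had 2, 3, 2 and 2 genes above the line on tolerant arrays 3 and 4 and rejecting arrays 3 and 4. The activator group had 3, 2, 3 and 1, among them Psme3ip1 on 2 arrays. Of the 7 alpha genes, 6 were under the line on all 8 arrays and 0 were above it on all arrays 3 and 4. For beta genes those counts were 2 and 2 of 9, for base genes 4 and 0 of 7, for lid genes 9 and 1 of 14, and for activator genes 2 and 1 of 5. In 5 members every array numbered 3 or 4 read higher than every array numbered 1 or 2 (11.9%, against 8.80% of all genes), namely Psmb3, Psmb6, Psmc4, Psmd8 and Psme3ip1. The reverse held for 0 of the 42 (5.90% of all genes). The median excess of arrays 3 and 4 over arrays 1 and 2 was 0.39 for beta genes and 0.27 for activators, against 0.00 for alpha genes, 0.01 for lid genes, 0.08 for base genes and 0.01 for all genes.

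**Figure D2:**
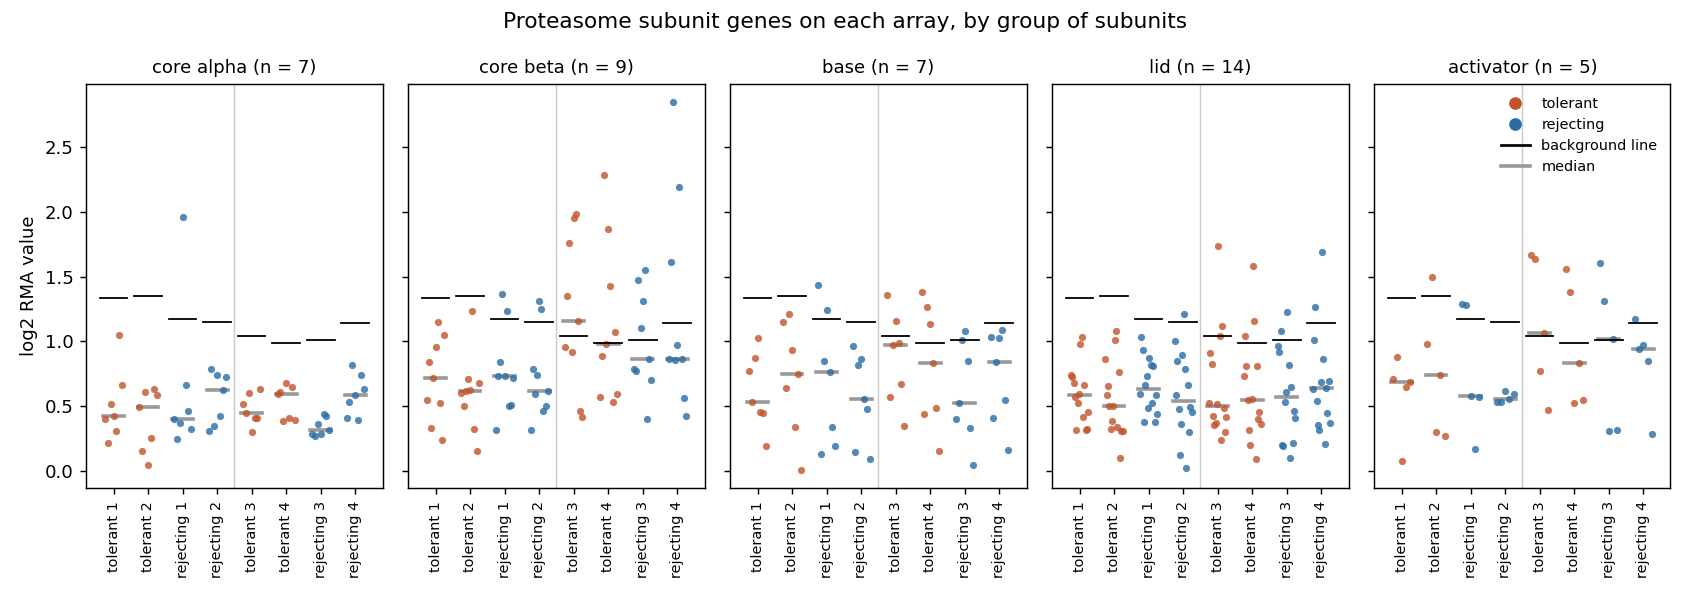
Values (log2 RMA) of the 42 proteasome genes on each array, 1 panel for each group of subunits. Points are genes, coloured by group of samples, the black bar is the array's background line and the grey bar the median of the genes. On arrays 3 and 4, points above the black bars lie in the beta, base, lid and activator panels. The alpha panel has 1 such point, on rejecting array 1.

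Between tolerant and rejecting T cells, none of the 42 genes passed the test in any comparison. The test was limma's moderated test over 21218 probe sets, 2-sided, with Benjamini-Hochberg adjustment and a threshold of 0.05. Over all 8 arrays 0 of 42 passed, against 0% of all probe sets, and on arrays 3 and 4 it was 0 of 42, against 0.0518%. On arrays 1 and 2 it was 0 of 42, against 0%, and for the difference between the sets, tested as an interaction, 0 of 42, against 0.0566%. Of all probe sets, 0.0471% were called higher and 0.00471% lower in tolerant samples on arrays 3 and 4, and for the interaction 0.0471% were called above 0 and 0.00943% below.

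At an unadjusted p under 0.05 in limma there were 3 of 42 members over 8 arrays, against 2.89% of all probe sets. Of these, 1 was higher (against 1.47%) and 2 lower (against 1.42%). There were 3 members on arrays 3 and 4, against 7.21%, with 2 higher (against 4.64%) and 1 lower (against 2.57%). Arrays 1 and 2 also had 3 members, against 5.15%, with 1 higher (against 2.46%) and 2 lower (against 2.69%). For the interaction it was 4 members, against 7.13%, with 3 above 0 (against 4.24%) and 1 below (against 2.89%). Without regard to direction, the members' share was 7.14% over 8 arrays, on arrays 3 and 4 and on arrays 1 and 2. For the interaction it was 9.52%. These shares were above the background except on arrays 3 and 4, where 7.14% stood beside 7.21%. Each rests on 3 or 4 genes.

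The members' differences, tolerant minus rejecting, centred near 0. The median on arrays 3 and 4 was 0.04, with 27 of 42 above 0 (64.3%, against 48.2% of all probe sets), and the range was -0.35 to 0.77. It was -0.07 on arrays 1 and 2, with 15 of 42 above 0 (35.7%, against 49.4%). Over 8 arrays it was 0.05, with 23 of 42 above 0 (54.8%, against 50.1%). The interaction had a median of 0.10, with 28 of 42 above 0 (66.7%, against 50.2%). Each median over all probe sets lay within -0.01 and 0.00. With 1 array left out, the members' median ran from -0.02 to 0.07 over 8 arrays and was below 0 without tolerant replicate 3, tolerant replicate 4 or rejecting replicate 2. It ran from -0.01 to 0.13 on arrays 3 and 4 and was below 0 without rejecting replicate 3. It stayed below 0 on arrays 1 and 2.

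The groups did not overlap on arrays 3 and 4 for 8 members that were higher in tolerant samples (19%, against 19.3% of all probe sets) and 3 that were lower (7.14%, against 20.0%). The higher ones were Psma1, Psmb5, Psmc1, Psmc3ip, Psmd9, Psmd11, Psme2 and Psme4, and the lower ones Psmd3, Psmd7 and Psmd13. On the other set, arrays 1 and 2, 8 were higher (19%, against 17.2%) and 10 lower (23.8%, against 17.1%). Over all 8 arrays it was 1 higher (2.38%, against 1.09%) and 2 lower (4.76%, against 1.13%). The difference had the same sign in both sets for 20 of 42 members (47.6%), against 48.8% of all genes, 10 of them higher and 10 lower in tolerant samples. The sets share no array. Over probe sets, the Pearson coefficient of any pair of arrays numbered 1 or 2 lay between 0.59 and 0.64. Pairs numbered 3 or 4 had 0.87 to 0.92, and pairs taken from both sets had 0.55 to 0.67. Only 2 members were above the line on 2 or more of arrays 1 and 2, against 12 on arrays 3 and 4. With so few members detected on arrays 1 and 2, a change of sign there cannot show that a difference failed to repeat.

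**Figure D3:**
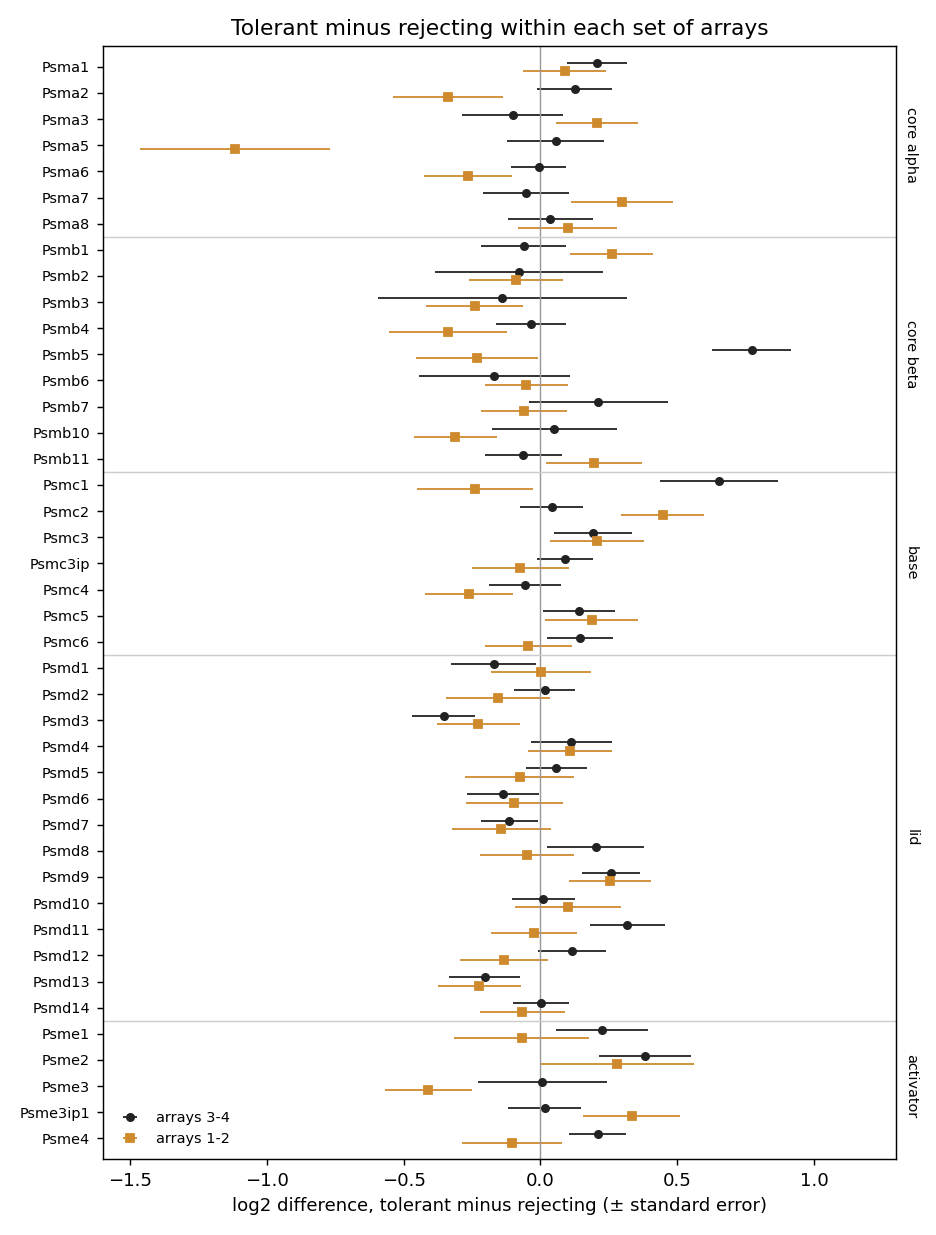
Difference between tolerant and rejecting samples (log2, tolerant minus rejecting, bars ± 1 standard error of limma) for each of the 42 genes, on arrays 3 and 4 (black circles) and on arrays 1 and 2 (orange squares). Psmb5 at 0.77 and Psmc1 at 0.65 lie farthest to the right on arrays 3 and 4, while both lie left of 0 on arrays 1 and 2.

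Among the catalytic subunits, Psmb5 (probe set 10419810), which carries the chymotrypsin-like site, differed between the groups on arrays 3 and 4 with the lowest p of the 42 (limma unadjusted p = 0.00245) and did not pass. It read 1.95 and 1.87 on tolerant arrays 3 and 4 and 1.31 and 0.97 on rejecting arrays 3 and 4. The tolerant values were both higher, and that of rejecting array 4 lay under its background line of 1.14. The difference was 0.77 (standard error, SE, of 0.15, limma adjusted p = 0.272). On arrays 1 and 2 it read 0.96 and 0.63 in tolerant and 0.73 and 1.31 in rejecting samples, which overlapped. The difference there was -0.23 with a standard error of 0.22, and the difference between the sets was 1.00 (SE 0.30, limma adjusted p = 0.540).

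Psmb6 and Psmb7, the caspase-like and trypsin-like subunits, had groups that overlapped on arrays 3 and 4. Psmb6 (10377851) read 1.15, 1.23, 1.98 and 1.43 on tolerant arrays 1 to 4 and 1.24, 1.25, 1.55 and 2.20 on rejecting arrays 1 to 4. Its difference on arrays 3 and 4 was -0.17 (SE 0.28, limma adjusted p = 0.901). Psmb7 (10482229) read 0.52, 0.32, 1.16 and 0.53 on tolerant arrays and 0.50, 0.47, 0.40 and 0.86 on rejecting arrays. Only its value on tolerant array 3 was above the line, and the difference on arrays 3 and 4 was 0.21 with a standard error of 0.25.

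Of the interferon-induced counterparts, Psmb9 was above the line on every array numbered 3 or 4, and Psmb8 and Psmb10 on 1 array each. Psmb10 (10581378) read 0.24, 0.16, 0.47 and 1.07 on tolerant arrays 1 to 4 and 0.51, 0.50, 0.87 and 0.57 on rejecting arrays 1 to 4. It lay above the line on tolerant array 4 alone, and its groups overlapped on arrays 3 and 4 (difference 0.05 with a standard error of 0.23). Psmb9, which takes the place of Psmb6, read 0.78, 0.69, 1.21 and 1.50 in tolerant and 0.66, 0.75, 1.79 and 1.32 in rejecting samples. Its groups overlapped on arrays 3 and 4, where the difference was -0.20 (SE 0.20, limma adjusted p = 0.836). Psmb8, which takes the place of Psmb5, read 1.03, 0.82, 0.87 and 0.87 in tolerant and 0.96, 0.82, 1.34 and 1.01 in rejecting samples. On arrays 3 and 4 both tolerant values were lower, with -0.30 between the means (SE 0.14, limma adjusted p = 0.708), and only rejecting array 3 was above the line.

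The beta subunit Psmb3, a structural part of the ring without a catalytic site, varied more within the groups than between them. It was chosen here after its values were seen, as 1 of the 4 genes above the line on all arrays 3 and 4. Psmd8, Psmb2, Psmd11 and Psmd13 were likewise named with values after these were seen. Its probe set 10434643 read 0.33, 0.62, 1.76 and 2.28 on tolerant arrays 1 to 4 and 0.84, 0.59, 1.48 and 2.85 on rejecting arrays 1 to 4. The rejecting arrays 3 and 4 stood 1.37 apart, and the tolerant values lay between them. A second probe set, 10380815, gave the same order on these arrays, with 1.29 and 1.72 in tolerant and 1.25 and 2.34 in rejecting samples. The difference was -0.14 with a standard error of 0.46 for the first.

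Other beta genes were at or near the line. Psmb2 read 1.35 and 0.89 on tolerant arrays 3 and 4 and 0.77 and 1.62 on rejecting arrays 3 and 4, the same split of the rejecting pair as in Psmb3. Psmb4 (10500034) read 0.72, 0.71, 0.92 and 0.98 in tolerant and 1.37, 0.74, 1.11 and 0.86 in rejecting samples, with lower tolerant values on arrays 1 and 2 and overlap on arrays 3 and 4. Its difference over 8 arrays was -0.19 (SE 0.14, limma adjusted p = 1). Psmb1 and the thymus-specific Psmb11 were under the line on all 8 arrays. A second probe set of Psmb1, 10605786, was above it on rejecting array 4 alone, at 1.19.

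**Figure D4:**
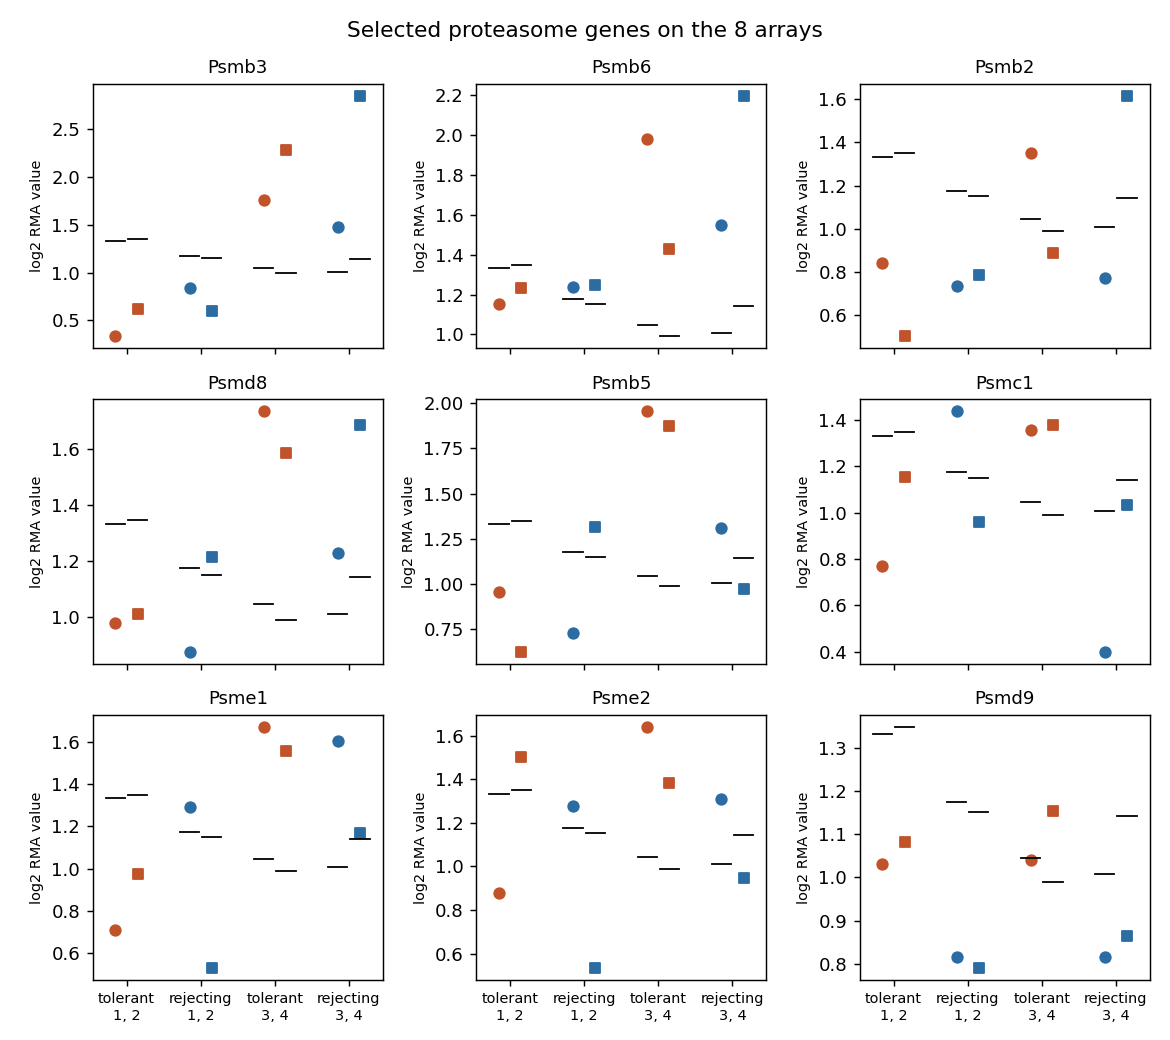
Values (log2 RMA) of 9 proteasome genes in tolerant (red) and rejecting (blue) samples, with arrays 1 and 2 on the left of each panel and arrays 3 and 4 on the right. Circles are arrays 1 or 3, squares arrays 2 or 4, short bars the background line of that array, and each panel has its own vertical scale. The tolerant points of Psmb5 and Psmc1 lie above the rejecting ones on arrays 3 and 4, and the rejecting points of Psmb3 and Psmb2 there lie on either side of the tolerant ones.

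The alpha subunits, which form the outer rings and gate the pore, were above the line least often of the 5 groups. Psma1 (10567072) read 0.40, 0.49, 0.52 and 0.60 in tolerant and 0.40, 0.31, 0.28 and 0.41 in rejecting samples, all under the line. On arrays 3 and 4 its groups did not overlap and differed by 0.21 (SE 0.11, limma adjusted p = 0.728). Psma2 (10403706) read 0.21, 0.15, 0.44 and 0.61 in tolerant and 0.25, 0.79, 0.27 and 0.53 in rejecting samples. Its difference was 0.13 on arrays 3 and 4 and -0.34 on arrays 1 and 2, with all values under the line.

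Psma5 (10495279) was the alpha gene with a value above the line, on 1 array. It read 0.42, 0.04, 0.30 and 0.68 in tolerant and 1.96, 0.74, 0.29 and 0.59 in rejecting samples. The value of 1.96 on rejecting array 1 stood apart, and a second probe set of the gene, 10365426, read 0.30 on that array. The 8-array difference was -0.53 (SE 0.32, limma adjusted p = 1), and it was -0.17 without rejecting replicate 1. On arrays 1 and 2 the Psma5 difference was -1.12 (SE 0.35, limma unadjusted p = 0.0113, adjusted p = 0.936), the lowest difference of the 42 there. Its interaction was 1.17 (SE 0.48, limma adjusted p = 0.683). Psma3, Psma6, Psma7 and the testis subunit Psma8 had differences between -0.10 and 0.04 on arrays 3 and 4.

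In the ATPase ring of the base, Psmc1 (10397741) showed the second largest difference of the 42 on arrays 3 and 4. It read 1.36 and 1.38 on tolerant arrays 3 and 4, both above the line, and 0.40 and 1.03 on rejecting arrays 3 and 4, both under it. The difference was 0.65 (SE 0.22, limma adjusted p = 0.599). On arrays 1 and 2 it read 0.77 and 1.15 in tolerant and 1.44 and 0.96 in rejecting samples, which overlapped. The difference between the sets was 0.89 (SE 0.34, limma adjusted p = 0.680). A second probe set, 10439878, stayed between 0.25 and 0.51 on all 8 arrays, with a difference of 0.10 on arrays 3 and 4.

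Psmc2 and Psmc3, also ATPases, had no overlap between the groups on arrays 1 and 2, where both were higher in tolerant samples. Psmc2 (10520025) read 0.53, 0.64, 0.57 and 0.44 in tolerant and 0.13, 0.15, 0.52 and 0.41 in rejecting samples, with a difference of 0.24 over 8 arrays and 0.04 on arrays 3 and 4. The 0.45 on arrays 1 and 2 was the highest of the 42 there (SE 0.15, limma unadjusted p = 0.0178, adjusted p = 0.936). All of these values lay under the line. Psmc3 (10473793) read 0.87, 1.21, 0.97 and 1.27 in tolerant and 0.85, 0.82, 1.01 and 0.84 in rejecting samples. Its differences were 0.19 on arrays 3 and 4 and 0.21 on arrays 1 and 2, and its groups overlapped on arrays 3 and 4. The base group held 6 of 7 members above 0 on arrays 3 and 4, with a median of 0.14, and 3 of 7 on arrays 1 and 2, with a median of -0.04.

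Of the genes grouped with the lid, the chaperone Psmd9 (10525506) had groups that did not overlap over all 8 arrays. It read 1.03, 1.08, 1.04 and 1.15 in tolerant and 0.81, 0.79, 0.82 and 0.86 in rejecting samples. The difference was 0.26 (SE 0.08, limma unadjusted p = 0.00826, adjusted p = 1), and it was 0.26 and 0.25 on arrays 3 and 4 and on arrays 1 and 2. Only its value on tolerant array 4 lay above the line.

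The lid subunits Psmd3 and Psmd13 were the other members without overlap, both lower in tolerant samples. Psmd3 (10380986) read 0.68, 0.66, 0.83 and 0.81 in tolerant and 0.94, 0.85, 1.08 and 1.26 in rejecting samples, with rejecting arrays 3 and 4 above the line. The difference was -0.29 with a standard error of 0.11 over 8 arrays (limma adjusted p = 1) and -0.35 with a standard error of 0.12 on arrays 3 and 4 (limma adjusted p = 0.592). Psmd13 had differences of -0.21 over 8 arrays and -0.20 on arrays 3 and 4, all values under the line. Psmd8, a lid subunit detected on all arrays 3 and 4, read 1.74 and 1.59 in tolerant and 1.23 and 1.69 in rejecting samples there, which overlapped. Psmd11, another lid subunit, was above the line on tolerant array 3 alone and had a difference of 0.32 on arrays 3 and 4 (SE 0.14, limma adjusted p = 0.699). The deubiquitinase Psmd14 stayed between 0.31 and 0.46 on all 8 arrays.

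All 5 genes grouped as activators had differences above 0 on arrays 3 and 4, between 0.01 and 0.38, and 2 of 5 on arrays 1 and 2. Psme1 (10415282) read 0.71, 0.98, 1.67 and 1.56 in tolerant and 1.29, 0.53, 1.61 and 1.17 in rejecting samples, overlapping in each set. Psme2 (10420030), which forms a ring with Psme1, read 0.88, 1.50, 1.64 and 1.38 in tolerant and 1.28, 0.54, 1.31 and 0.94 in rejecting samples. Its groups did not overlap on arrays 3 and 4 and differed by 0.38 (SE 0.17, limma adjusted p = 0.702). A probe set shared by Psme2 and its near copy Psme2b lay under the line on all 8 arrays and had a difference of -0.18 on arrays 3 and 4.

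The nuclear activator Psme3 (10381345) read 0.07, 0.30, 0.77 and 0.52 in tolerant and 0.58, 0.62, 0.31 and 0.97 in rejecting samples. Its difference was 0.01 on arrays 3 and 4 and -0.41 on arrays 1 and 2, with all values under the line. Psme4 (10374934), an activator involved in histone turnover, read 0.69, 0.27, 0.47 and 0.55 in tolerant and 0.57, 0.59, 0.31 and 0.29 in rejecting samples. All its values were under the line, and the difference on arrays 3 and 4 was 0.21 (SE 0.10, limma adjusted p = 0.714).

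For most members at least 1 of the within-group gaps on arrays 3 and 4 was as large as the difference between the groups. The difference was larger than the gap between the 2 tolerant and that between the 2 rejecting arrays for 10 of 42 members (23.8%), against 26.2% of all genes. The median gap was 0.16 between the tolerant and 0.24 between the rejecting arrays, and the median size of the difference was 0.11. Over all genes these were 0.13, 0.13 and 0.11. Rejecting array 3 was the lowest of the 4 for 17 members (40.5%, against 23.4% of all genes). These were 5 of 7 alpha, 3 of 9 beta, 3 of 7 base, 5 of 14 lid and 1 of 5 activator genes. The alpha genes all lay under the background line on these 4 arrays. Among the activators rejecting array 4 was lowest for 3 of 5.

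Other genes of the pathway did not pass the test either, in limma. The lists were the partners Psmb8 and Psmb9, then the assembly genes with the inhibitor, Sem1 and Adrm1 (8 measured of 10 listed). After these came the shuttles and deubiquitinases (11 of 13), the Nfe2l1 pathway (6 of 7) and ubiquitin with its activating enzymes (1 of 6). Of all these genes, 0 were higher and 0 lower in any comparison. At an unadjusted p under 0.05 on arrays 3 and 4 the counts were 0, 0, 1, 1 and 0, against 7.21% of all probe sets. On arrays 1 and 2 they were 0, 1, 0, 0 and 0, against 5.15%, and for the interaction 0, 2, 0, 1 and 0, against 7.13%. Over 8 arrays each was 0, against 2.89%.

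The shuttle cofactor Nploc4 read 0.52, 0.20, 0.74 and 1.02 in tolerant and 0.40, 0.33, 0.59 and 0.49 in rejecting samples, with 0.34 between the means of arrays 3 and 4 (limma adjusted p = 0.688). Mafg, a small Maf partner of Nfe2l1, read 1.82, 0.98, 1.67 and 1.61 in tolerant and 1.14, 1.27, 2.33 and 2.10 in rejecting samples. It was above the line on all arrays 3 and 4, and lower in tolerant samples there, with -0.57 between the means (SE 0.12, limma adjusted p = 0.362). The core assembly factor Pomp, named after its values were seen, read 1.11, 1.34, 0.87 and 0.64 in tolerant and 0.47, 0.29, 0.95 and 0.81 in rejecting samples, under the line on all 8 arrays. Its difference was 0.85 on arrays 1 and 2 (limma adjusted p = 0.936) and -0.12 on arrays 3 and 4, and the interaction was -0.97 (SE 0.21, limma adjusted p = 0.231). The other gene of its list with an unadjusted p under 0.05 for the interaction was the assembly chaperone Psmg2, at -0.50 (limma adjusted p = 0.687).

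The remaining genes named from these lists were under the line on all 8 arrays. The deubiquitinase Uchl5 read 0.22, 0.44, 0.49 and 0.38 in tolerant and 0.39, 0.28, 0.15 and 0.23 in rejecting samples, a difference of 0.24 on arrays 3 and 4. The inhibitor Psmf1 read 0.55, 0.79, 0.80 and 0.93 in tolerant and 0.41, 0.93, 0.69 and 0.62 in rejecting samples, a difference of 0.21 there. Both had higher tolerant values on arrays 3 and 4 and overlapped on arrays 1 and 2. The transcription factor Nfe2l2 read 0.54, 0.33, 0.79 and 0.61 in tolerant and 0.26, 0.18, 0.51 and 0.30 in rejecting samples, a difference of 0.29 on arrays 3 and 4. The assembly chaperone Psmg1 read 0.32, 0.75, 0.39 and 0.15 in tolerant and 0.52, 0.62, 0.42 and 0.65 in rejecting samples, a difference of -0.27 there. The activating enzyme Uba6 had tolerant values of 0.65, 0.48, 0.41 and 0.27 and rejecting values of 0.34, 0.69, 0.49 and 0.57, a difference of -0.19 on arrays 3 and 4. Nfe2l2 was higher in tolerant samples without overlap in both sets, and Psmg1 and Uba6 were lower without overlap on arrays 3 and 4 alone. Since the genes were named by their p on arrays 3 and 4, lack of overlap there partly follows from that choice. Of all probe sets, 19.3% were higher and 20.0% lower without overlap on arrays 3 and 4, and 17.2% were higher on arrays 1 and 2.

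On arrays 3 and 4, kidney tubule, fibroblast and macrophage markers were higher in the tolerant samples, and the T cell and endothelial sums were too. Psmb5 and Psmc1 also read higher in these samples, though of the 42 members only 27 had differences above 0. Of the markers, 2 passed the test on arrays 3 and 4, Slc12a3 and Calb1 of the kidney (limma adjusted p = 0.0359 and 0.0440). No probe set was called there without tolerant replicate 3, without tolerant replicate 4 or when all probe sets of the table were tested, so these 2 calls were lost as well. On arrays 3 and 4 the summed log2 level of 10 kidney tubule genes was 18.4 to 23.6 in tolerant and 7.88 to 8.12 in rejecting samples, with 8 and 7 of them above the line against 2 and 1. For 7 fibroblast genes the sums were 16.2 to 16.9 in tolerant and 9.23 to 11.1 in rejecting samples, and for 8 macrophage genes 13.5 to 15 in tolerant and 4.42 to 9.16 in rejecting samples. Of these, 5 and 5 fibroblast genes lay above the line in tolerant and 4 and 3 in rejecting samples, and 6 and 5 macrophage genes in tolerant and 5 and 0 in rejecting samples. The 9 T cell genes summed to 9.80 to 12.5 in tolerant and 7.95 to 9.65 in rejecting samples, with 3 and 5 against 2 and 3 above the line. The 5 endothelial genes summed to 3.61 to 4.32 in tolerant and 2.13 to 3.17 in rejecting samples, and the 3 B cell genes to 1.01 to 1.13 in tolerant and 1.02 to 1.40 in rejecting samples. On arrays 1 and 2 the kidney sums were 4.55 to 5.34 in tolerant and 4.85 to 5.69 in rejecting samples, which overlapped. So did the fibroblast sums (6.12 to 6.71 and 6.25 to 6.80) and the macrophage sums (5.02 to 5.69 and 3.95 to 5.51). Under the line on all 8 arrays were Lrp2 and Kap of the kidney list, Lum and Pdgfra of the fibroblast list and Adgre1 of the macrophage list. The same held for Cd79b and Ms4a1 of the B cell list and all endothelial genes but Emcn. The part of these cell types in the values of the proteasome genes was not tested.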

How the data were processed

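The table deposited by the authors holds log2 values of 35556 probe sets, summarised by RMA in Affymetrix Expression Console, according to the submitters' processing notes; versions, library files, probe build and the base of the logarithm are not stated there, and base 2 was taken because the highest values lie between 12.57 and 12.68. Of the probe sets, 21218 carry 1 gene symbol in the platform annotation (names updated through Entrez identifiers to GRCm38.p6), 1881 several and 12457 none listed. These 21218 were tested with limma 3.58.1 in R 4.3.3 (lmFit, eBayes without trend, tolerant minus rejecting), and the procedure was tested on simulated data. Plots used Python 3.11.15 and matplotlib 3.10.9. The members, lists and array sets were chosen with earlier results of these data known.

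Values in every sample are given for Psmb5, Psmb6, Psmb7, Psmb10, Psme1 and Psme2 and for the 2 members of each of the 5 groups with the smallest unadjusted p over 8 arrays and on arrays 3 and 4, and, of each pathway list, up to 2 genes with the smallest p on arrays 3 and 4. Alternatives were leaving out arrays, a replicate block, the array set as a block, quantile normalization, median centring, cyclic loess, a filter on dim probe sets, all probe sets, trend and robust moderation, gene means and the 95th percentile as background line.

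Same-numbered arrays of the 2 groups deviated together, with correlations of their distances from the group mean of 0.400, 0.406, 0.426 and 0.521 for numbers 1 to 4 over probe sets, all above 0.1, the bound for fitting the numbers as pairs; differently numbered arrays of the same set correlated as much, by 0.370 to 0.527, so the numbers cannot be told from the sets. The p-values printed come from fits without a block, and the replicate block was an alternative. Array number limits the precision.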

Additional observations from a re-analysis of the deposited data

Results flagged for a closer look

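In 8 of 84 groups of 4 arrays, 1 array stood apart from the others by Dixon's ratio, the gap to its nearest neighbour over the group's whole range, past its 95% critical value. For 4 like arrays chance flags about 1 in 20 groups, but each group here joins arrays of both sets. The ratio was not computed for the other genes, so no share over all genes stands beside the count. The ratio was 0.952 for Psma3 in rejecting samples, where array 4 read 0.82 and the others 0.35 to 0.37, and 0.941 for Psmb2 in rejecting samples, where array 4 read 1.62 and the others 0.73 to 0.79. It was 0.837, 0.846 and 0.872 for Psma6, Psmc3 and Psmd11 in rejecting samples. In tolerant samples it was 0.874 for Psmb1, 0.87 for Psmd5 and 0.866 for Psmd13. Psma3, Psma6, Psmb1, Psmd5 and Psmd13 lay under the background line on all 8 arrays, Psmd11 on the 4 rejecting ones and Psmc3 on 3 of them.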

How the results depend on the processing

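No proteasome gene was called in any of the 4 comparisons under any alternative run. Of the members, 23 lay under the background line on all 8 arrays, and 10 did with the 95th percentile as the line, which put 15 in place of 4 above it on all arrays 3 and 4. The filter on dim probe sets kept 13, 12, 2 and 13 members over 8 arrays, on arrays 3 and 4, on arrays 1 and 2 and for the interaction, and no median was taken over them. The median difference of the members moved by more than its spread between arrays only when an array was left out. It then ran from -0.0208 to 0.0742 over 8 arrays, from -0.00512 to 0.133 on arrays 3 and 4, from -0.0868 to -0.011 on arrays 1 and 2 and from 0.0256 to 0.177 for the interaction. Leaving 1 array in a group assumes that it varies like the others. Of all probe sets, 11 were called on arrays 3 and 4, 0 to 48 with an array left out, 5 with the filter, 8 with the replicate block, 0 with all probe sets, 26 with trend and robust moderation and 45 with gene means. The interaction called 12, and 0 to 76 with an array left out, 7 with the replicate block, 0 with quantile normalization, 0 with all probe sets and 33 with gene means. On arrays 1 and 2 the count was 0 to 2 with an array left out, and over 8 arrays 0. The replicate block changed no call of a member. On arrays 3 and 4 the difference of Psma2 ran from -0.00312 to 0.256 and that of Psmb7 from -0.0994 to 0.522 with an array left out, which turned their sign. The causes were not tested.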

Other observations

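The probe set shared by Psma4, a further alpha subunit, and AY074887 read 0.40, 0.23, 0.44 and 0.53 on tolerant arrays 1 to 4 and 0.34, 0.27, 0.51 and 0.36 on rejecting arrays 1 to 4. It lay under the background line on all 8 arrays, with a difference of 0.05 on arrays 3 and 4 and 0.01 on arrays 1 and 2.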
